A study of Rattus norvegicus with 50 samples.

Results

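Livers of rats given erythropoietin after a brain injury were compared between 72 h and 24 h after the injury, with 5 arrays at each time, 10 of the 50 arrays of the study. All were livers of male Sprague Dawley rats about 3 months old. Every rat of these groups had a controlled cortical impact, a calibrated blow to the exposed cortex. The EPO groups received 2500 IU/kg of erythropoietin (Procrit, a recombinant human erythropoietin). Vehicle groups received saline, and anakinra groups received 100 mg/kg of anakinra, a recombinant drug that blocks the receptor of the inflammatory cytokine interleukin-1. Each of these treatments was sampled at 24 h, 72 h and 7 days, and a sham group was left uninjured, with 5 arrays in each of the 10 groups. The arrays were chosen by their titles, with no measured value in the rule. Each group held different animals. The time since injury and the time since EPO treatment began cannot be told apart within the EPO groups, and the dosing schedule and the hour of collection were not given in the sources used here.

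RNA from punches of the median liver lobe was hybridised to Affymetrix Rat Gene ST arrays, and values are log2 intensities after RMA (robust multi-array average), so that a difference of 1 is a doubling of the signal. Where a gene symbol had several probe sets, the probe set with the highest mean was used, which left 14506 genes. Array medians, taken over all 29214 probe sets, lay between 6.66 and 6.89 over the 50 arrays. At 72 h, EPO array 1 had a median of 6.80 and the narrowest spread of its group (SD 2.07 over probe sets). The other 4 arrays had medians of 6.66 to 6.71 and SDs of 2.11 to 2.16. Albumin (Alb), the defining hepatocyte secretory product, lay between 13.94 and 14.01 on all 10 EPO arrays, and none of 33 measured markers of neighbouring pancreas, muscle, fat or mesothelium passed limma's test (1 had an unadjusted p under 0.05). In a bulk tissue punch, a change in the number of cells of a type and a change in RNA per cell cannot be told apart. The labels do not mention perfusion, so RNA of cells in the blood vessels may be part of the measured RNA. The p-values rest on the spread between arrays within groups, as 1 estimate per gene pooled over all 10 groups. They do not measure the spread of the EPO groups alone.

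Erythropoietin is the kidney hormone that keeps red cell precursors alive and lets them divide and mature. It binds a homodimeric receptor on those precursors and signals through JAK2 and STAT5. Maturing red cells build a spectrin-based membrane skeleton, make heme and globin, and clear their organelles. The liver is the blood-forming organ of the fetus, and in adult rodents it can hold red cell precursors again under strong stimulation. Hepatocytes also make hepcidin, the hormone that closes ferroportin and so limits the iron available for hemoglobin, and active red cell production is known to lower it.

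Promoter sequences are shown for the leading red cell genes with a RefSeq entry. Of 93 measured red cell genes, 36 rose and none fell, against 1.76% higher and 0.152% lower among all genes tested. GATA1 and KLF1 are well known regulators of such genes. Each runs from 250 bases before to 50 bases after the annotated start, 5′ to 3′ in the direction of transcription, on build GRCr8 as given by RefSeq. Capitals mark matches on either strand to a GATA motif (AGATAA or TGATAA) or a KLF motif (CCNCNCCC), which do not overlap in the sequences printed. The genes are Alas2 (chrX:22895200-22895499, plus strand), Rhd (chr5:152370950-152371249, plus strand), Rhag (chr9:27594341-27594640, minus strand) and Epb42 (chr3:128451634-128451933, minus strand).
Alas2: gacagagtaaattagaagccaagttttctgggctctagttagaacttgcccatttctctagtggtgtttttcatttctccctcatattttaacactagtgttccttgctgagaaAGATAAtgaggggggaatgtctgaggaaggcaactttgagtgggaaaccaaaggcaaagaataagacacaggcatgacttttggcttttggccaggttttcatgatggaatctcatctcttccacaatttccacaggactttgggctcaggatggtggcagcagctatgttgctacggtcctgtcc
Rhd: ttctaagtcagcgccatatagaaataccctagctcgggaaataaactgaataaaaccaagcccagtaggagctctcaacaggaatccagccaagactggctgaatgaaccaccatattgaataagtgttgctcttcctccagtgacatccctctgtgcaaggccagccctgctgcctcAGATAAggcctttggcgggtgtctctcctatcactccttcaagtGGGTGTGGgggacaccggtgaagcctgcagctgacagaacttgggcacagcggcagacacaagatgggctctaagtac
Rhag: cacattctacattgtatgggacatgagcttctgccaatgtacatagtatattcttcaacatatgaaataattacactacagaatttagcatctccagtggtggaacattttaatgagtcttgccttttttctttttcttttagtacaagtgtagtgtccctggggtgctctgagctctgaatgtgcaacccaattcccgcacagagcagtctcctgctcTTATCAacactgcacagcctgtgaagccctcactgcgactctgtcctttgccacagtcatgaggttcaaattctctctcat
Epb42: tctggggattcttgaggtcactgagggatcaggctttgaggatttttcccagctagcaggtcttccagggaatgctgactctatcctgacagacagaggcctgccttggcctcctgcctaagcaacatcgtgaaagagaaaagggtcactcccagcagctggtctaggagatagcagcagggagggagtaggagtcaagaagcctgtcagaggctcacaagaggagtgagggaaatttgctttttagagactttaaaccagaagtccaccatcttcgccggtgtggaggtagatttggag
The GATA match began at position -136 relative to the start in Alas2, at -72 in Rhd and at -31 in Rhag, and the KLF match of Rhd began at -28. The Epb42 window held neither set of letters. Over 4 lists of red cell genes (globin, membrane, heme and maturation), 32 of 74 measured members rose and 23 of those had a promoter entry. A GATA match stood in 9 of these 23 (39.1%), in 12 of the 59 measured members with an entry (20.3%), in 15% of the 11968 tested genes with an entry and in 18.6% of all 27457 promoters. A KLF match stood in 16 of the 23 (69.6%), against 76.3% of the 59 measured members and 58% of tested genes. The motif of NFE2 (TGAGTCA) stood in 4 of the 23 (17.4%), against 8.47% of the 59 measured members and 3.83% of tested genes. Among all 205 genes that rose and had an entry, it stood in 8.29%. A match describes letters in the window and is not a measured binding site.

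From 24 h to 72 h in EPO livers, part of the red cell, cell cycle, platelet and myeloid marker genes rose, and the hepcidin gene fell. Which cells held these transcripts was not tested. Of 14506 genes, 278 passed limma's moderated test at a Benjamini-Hochberg adjusted p under 0.05. These 278 (1.92%) were 256 higher at 72 h (1.76% of genes tested) and 22 lower (0.152%), and the median difference over all genes was -0.01. With so few genes lower, a list in which none fell is near the share over all genes. At least 1.5-fold changes were reached by 127 of the higher and 9 of the lower genes, and at least 2-fold changes by 63 and 3. All 5 arrays at 72 h lay above all 5 at 24 h for 290 genes (2% of those tested), and below them for 91 (0.627%). Leaving out each of the 10 arrays in turn gave between 189 genes (without 72 h array 2) and 393 genes (without 72 h array 1), and 146 of the 278 genes passed in all 10 of these fits. With only the EPO groups of both times in the fit, 155 genes passed, 135 of them among the 278.

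**Figure D1:**
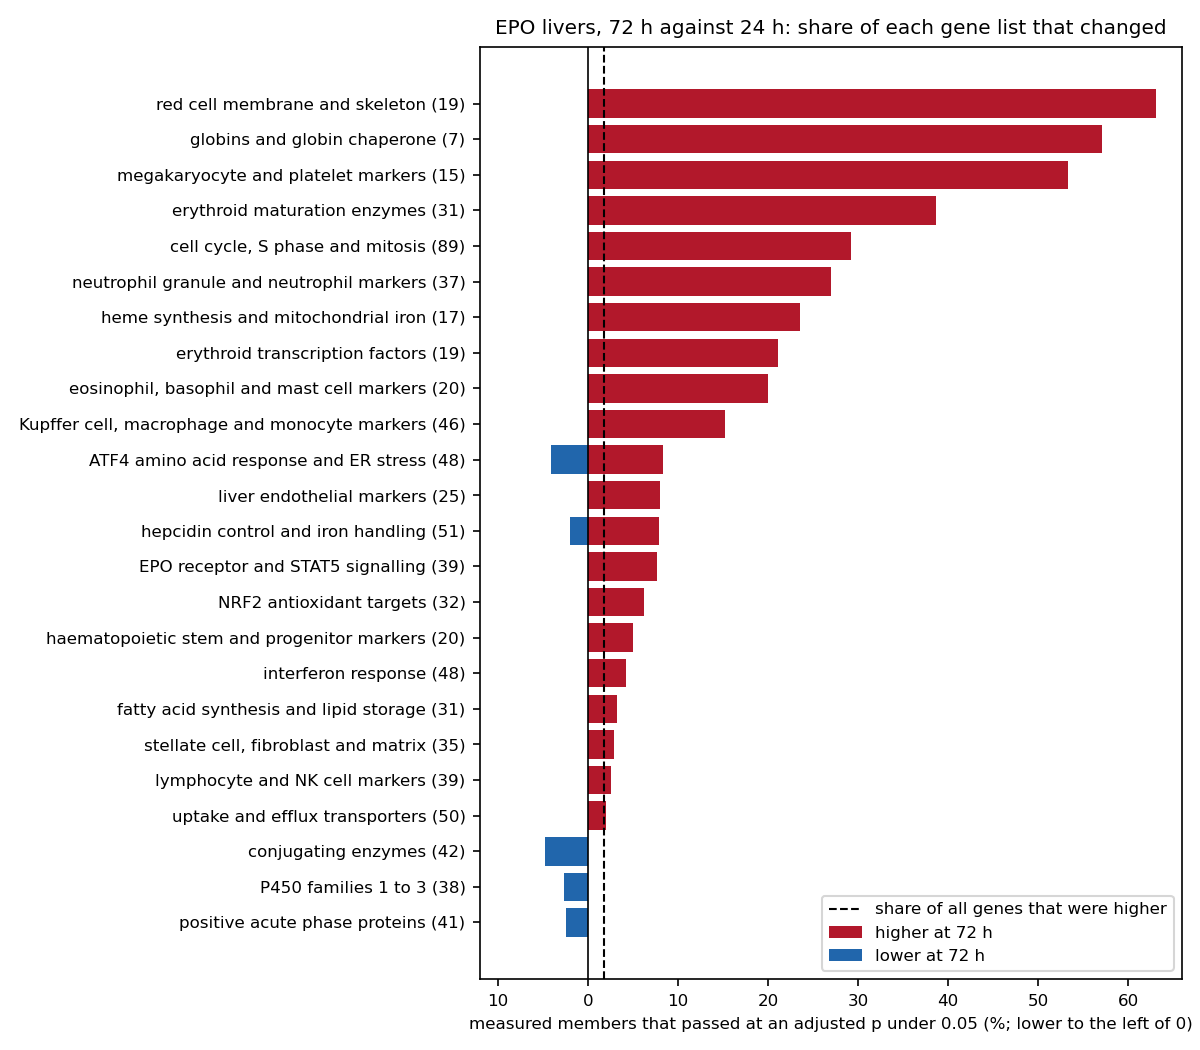
Horizontal bars give the share (%) of the measured members of each gene list that were higher (red, right of 0) or lower (blue, left of 0) at 72 h than at 24 h in EPO livers at an adjusted p under 0.05, with the number measured in brackets. The dashed line is the 1.76% of all genes that were higher, and lists with no member passing are not drawn.

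Red cell membrane genes held the highest share of members that rose. Of 19 measured members of the membrane and skeleton list, 12 rose and none fell, with a median difference of 0.79. Rhag, which encodes the Rh-associated glycoprotein of the red cell membrane, had the smallest p of all genes. Its 24 h values were 5.01, 5.08, 5.14, 5.13 and 4.99, and its 72 h values were 6.54, 6.55, 7.50, 8.14 and 7.30. The lowest 72 h array stood well above the highest 24 h array. The difference was 2.14 ± 0.17 (SE), a 4.4-fold rise with an adjusted p of 4.72e-12 in limma, and the 24 h level of 5.07 ± 0.07 (SD, n = 5) was close to the sham level of 4.96 ± 0.19.

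Slc4a1, the band 3 anion exchanger that anchors the skeleton, was 8.01, 8.0, 8.65, 8.28 and 7.95 at 24 h, and 10.06, 10.97, 11.28, 11.72 and 10.05 at 72 h. The groups did not overlap, and arrays 1 and 5 were the lowest at 72 h. The rise was 2.64 ± 0.39 (adjusted p = 9.99e-06). Rhd, the Rh blood group antigen, went from 6.61, 6.68, 7.39, 7.01 and 6.80 to 8.25, 9.48, 10.12, 10.76 and 8.44, a rise of 2.51 ± 0.36 (adjusted p = 4.58e-06). Epb42, the band 4.2 protein that links the exchanger to the skeleton, went from 6.96, 6.87, 7.08, 6.95 and 6.76 to 7.89, 8.83, 9.24, 9.96 and 8.01, a rise of 1.86 ± 0.25 (adjusted p = 1.41e-06). In each of these genes array 4 was the highest at 72 h. Erythroid beta-spectrin (Sptb) rose by 1.69 and ankyrin 1 (Ank1), which ties spectrin to band 3, rose by 1.24. The other members that rose were Add2, Epb41, Tmod1, Tfrc, Trim10 and Aqp1, and the call for Tfrc passed in 3 of the 10 fits without 1 array.

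Among the globins and their chaperone, 4 of 7 measured members rose, with a list median of 1.44. Ahsp, the chaperone that holds free alpha-globin, had the largest difference of all genes. It was 6.83, 7.07, 7.72, 7.44 and 6.98 at 24 h and 9.50, 11.02, 11.31, 11.59 and 10.27 at 72 h. The lowest 72 h array was above every 24 h array, and the difference of 3.53 ± 0.57 was an 11.6-fold rise (adjusted p = 3.92e-05). Hbb, an adult beta-globin, was 12.04, 11.91, 12.38, 11.98 and 11.52 at 24 h, and reached 13.02, 13.45, 13.61, 13.94 and 13. Its 24 h mean of 11.96 lay below the means of 12.44 in sham livers, 12.31 in vehicle livers at 24 h and 12.36 in anakinra livers at 24 h. Its rise of 1.44 ± 0.31 (adjusted p = 0.00358) was shared by the neighbouring beta-globin probe set Hbb-b1 (1.53, adjusted p = 0.00955). The alpha-globin probe set Hba-a3 had a difference of 1.45 that did not pass (adjusted p = 0.0544), and 3 of its 5 arrays at 72 h lay above all 24 h arrays. Globin genes are near-identical copies, so a probe set can read more than its named gene. The embryonic globin Hbe1 rose by 0.59.

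**Figure D2:**
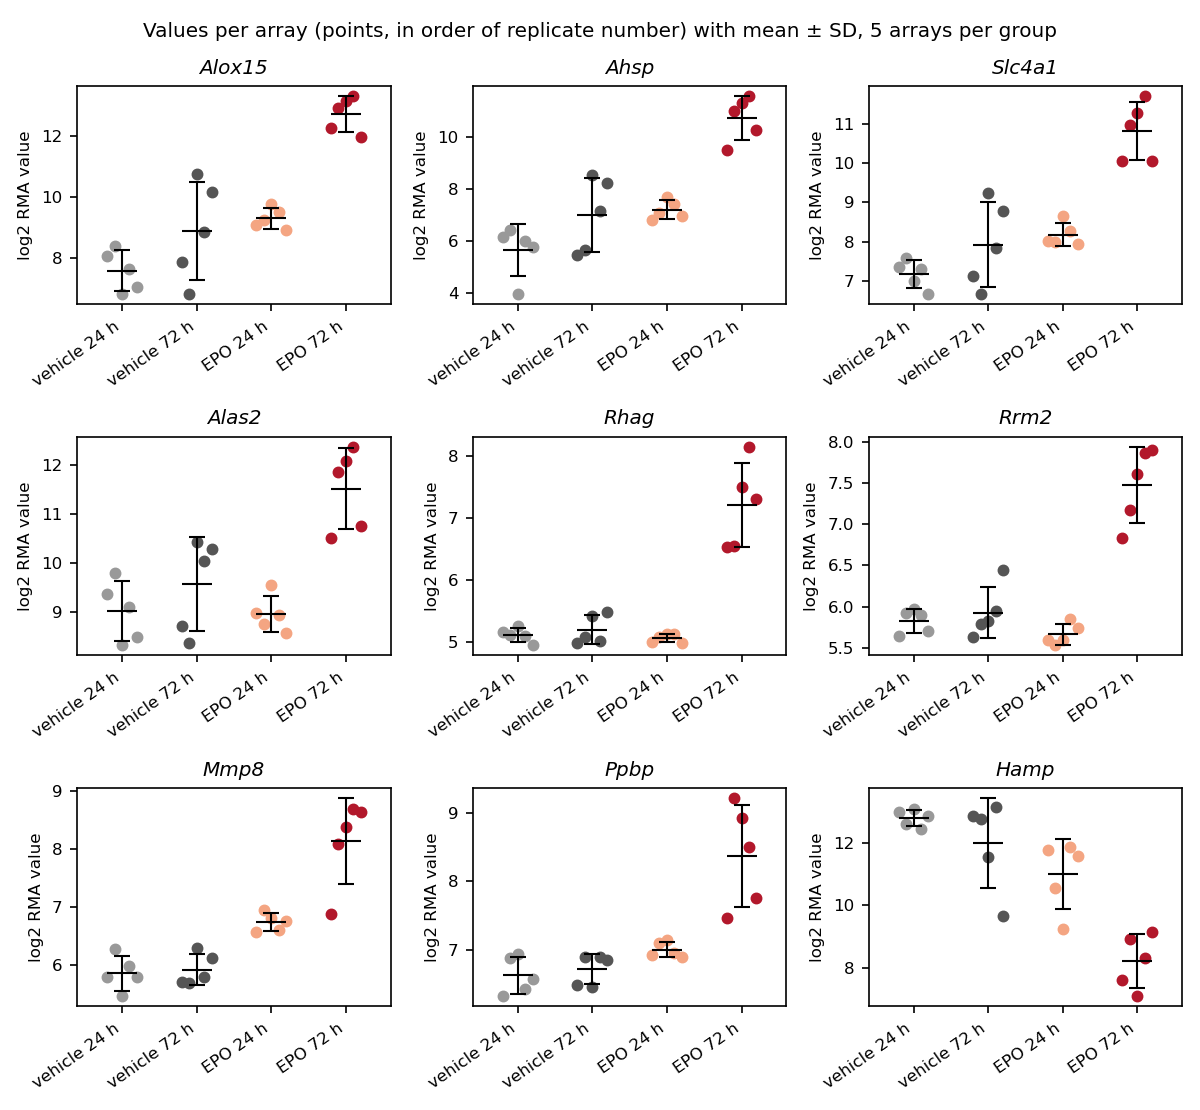
Each panel gives log2 RMA values of 1 gene in vehicle and EPO livers at 24 h and 72 h, with 1 point per array in order of replicate number and the mean ± SD of 5 arrays. In all panels but that of Mmp8, the EPO 72 h points lie apart from the EPO 24 h points, and in the panel of Hamp they lie below them.

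Heme synthesis genes rose at particular steps. Of 17 measured members, 4 rose and 13 did not pass, with a list median of 0.15. Alas2, the erythroid enzyme of the first and rate-limiting step, was 8.98, 8.76, 9.55, 8.94 and 8.58 at 24 h and 10.52, 11.85, 12.08, 12.36 and 10.75 at 72 h. The groups did not overlap (2.55 ± 0.47, a 5.85-fold rise, adjusted p = 0.000377). Its counterpart in hepatocytes and other tissues, Alas1, had a difference of -0.13. Slc25a37, mitoferrin 1, which brings iron into mitochondria, rose by 1.46 from 8.44, 8.12, 8.24, 8.61 and 8.42 to 9.20, 10.08, 10.15, 10.32 and 9.38. Fech, the last enzyme, which inserts the iron, rose by 1.01 from 9.30, 9.03, 9.19, 9.04 and 8.91 to 9.42, 10.10, 10.47, 11.02 and 9.50. Arrays 1 and 5 at 72 h were again nearest to the 24 h arrays. Urod, an intermediate enzyme, rose by 0.38, a call that passed in 3 of the 10 fits without 1 array.

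Of 19 measured erythroid transcription factors, 4 rose, with a list median of 0.10. Hemgn, a nuclear protein of erythroid cells, was 6.65, 6.31, 6.68, 6.45 and 6.58 at 24 h and 8.26, 9.48, 10.11, 10.24 and 9.07 at 72 h. Every 72 h array was above every 24 h array by a wide margin, with a difference of 2.90 ± 0.33 (adjusted p = 8.92e-08). Klf1, the activator of adult beta-globin, went from 7.14, 7.06, 7.09, 6.81 and 7.10 to 7.48, 7.79, 8.32, 9.21 and 7.55 (1.03 ± 0.19, adjusted p = 0.000314). Gata1, the master regulator of the lineage, went from 6.0, 6.30, 6.21, 6.21 and 5.99 to 6.68, 6.80, 6.77, 7.30 and 6.46 (0.66 ± 0.13, adjusted p = 0.000671). The groups were separate for both factors, and array 4 was the highest for both. Gfi1b, a repressor needed for red cells and platelets, rose by 0.54. Factors shared with early progenitors did not pass, with differences of 0.06 for Gata2, 0.07 for Tal1 and 0.13 for Lmo2.

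Enzymes and proteins of red cell maturation followed, with 12 of 31 measured members higher, none lower and a list median of 0.19. Alox15, the lipoxygenase that takes part in clearing mitochondria from reticulocytes, was 9.08, 9.23, 9.78, 9.52 and 8.93 at 24 h and 12.27, 12.91, 13.16, 13.32 and 11.97 at 72 h. No array overlapped, and the difference of 3.42 ± 0.55 was a 10.7-fold rise (adjusted p = 3.8e-05). Car2, a carbonic anhydrase of red cells and other tissues, went from 7.81, 7.73, 7.93, 7.57 and 7.51 to 8.96, 9.96, 10.65, 10.99 and 9.58 (2.32 ± 0.30, adjusted p = 9.13e-07). Car1, the abundant red cell carbonic anhydrase, rose by 1.68 and had its lowest 24 h value in array 5 (6.44, against 7.29 to 7.75 in the others). Its 24 h mean of 7.28 lay below the sham mean of 8.11, as did the mean of 7.03 in vehicle livers at 24 h. Prdx2, the peroxidase that removes hydrogen peroxide in red cells, rose by 1.01. The other members that rose were Rbm38, Bpgm, Isg20, Ranbp10, Bnip3l, Rab3il1, Dyrk3 and Xpo7. Bpgm makes the phosphoglycerate that lowers the oxygen affinity of hemoglobin, and Bnip3l removes mitochondria from reticulocytes. Over the union of the 5 red cell lists, 36 of 93 measured genes rose and none fell, with a median of 0.18.

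The EPO receptor itself did not pass. Epor was 7.17, 7.34, 7.30, 7.19 and 7.28 at 24 h and 7.26, 7.29, 7.23, 7.14 and 7.23 at 72 h. The ranges overlapped, although 72 h array 4 was below every 24 h array, with a difference of -0.02 (adjusted p = 0.997) and a sham level of 7.34 ± 0.07. Of 39 measured genes of the receptor and STAT5 pathway, 3 rose and none fell, with a median of 0.02. Csf2rb, the beta chain shared by several cytokine receptors, went from 8.28, 7.81, 7.78, 8.05 and 7.98 to 8.47, 9.28, 8.57, 8.96 and 8.76 (0.83 ± 0.12, adjusted p = 4.58e-06). Tfrc, the transferrin receptor through which precursors take up iron, rose by 0.79 from 8.96, 8.84, 9.30, 8.87 and 8.81 to 9.48, 9.71, 10.23, 10.03 and 9.25. Its lowest 72 h value, in array 5, was below the highest 24 h value. Podxl, a sialomucin of progenitor and endothelial surfaces, rose by 0.44. The call for Tfrc passed in 3 of the 10 fits without 1 array, and that for Podxl in 5. Feedback inhibitors of STAT5 signalling did not pass, with differences of -0.61 for Cish and -0.38 for Socs2. Without 24 h array 2 the list had 1 member higher, and its highest count in a fit without 1 array was 6.

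Cell cycle genes rose in part. Of 89 measured members, 26 rose and none fell, with a median of 0.26. Rrm2, the regulated subunit of ribonucleotide reductase, which makes the DNA precursors of S phase, was 5.60, 5.53, 5.60, 5.85 and 5.74 at 24 h and 6.83, 7.17, 7.61, 7.86 and 7.90 at 72 h. The groups were far apart, with a difference of 1.81 ± 0.19 (3.51-fold, adjusted p = 6.53e-09). Sham livers had 6.87 ± 0.55 for this gene, between the EPO groups at 24 h and 72 h. Top2a, the topoisomerase that untangles chromosomes before mitosis, went from 5.68, 5.64, 5.52, 5.47 and 5.71 to 6.24, 6.43, 6.49, 6.56 and 7.55, a rise of 1.05 ± 0.17 (adjusted p = 5.18e-05). Array 5 stood above the other 72 h arrays. Ccna2, the cyclin of S phase and G2, went from 4.92, 4.61, 4.66, 4.65 and 4.78 to 5.34, 5.38, 5.10, 5.51 and 5.81, and Nusap1, a spindle protein, went from 5.28, 5.45, 5.43, 5.43 and 5.17 to 5.82, 6.16, 6.22, 6.29 and 6.42. Both were separate between the times. Ccnd1, the G1 cyclin that hepatocytes use when the liver regenerates, did not pass (-0.37). As a mean over the 89 members relative to sham, the 24 h arrays lay between -0.21 and -0.12 and the 72 h arrays between -0.01 and 0.24.

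Neutrophil genes rose in part. Of 37 measured markers, 10 rose and none fell, with a median of 0.21. Ngp, a granule protein of maturing neutrophils, was 5.78, 5.76, 5.48, 5.55 and 5.59 at 24 h and 5.77, 7.01, 7.41, 8.11 and 7.13 at 72 h, a difference of 1.46 ± 0.20 (adjusted p = 2.52e-06). Mmp8, the neutrophil collagenase, was 6.57, 6.95, 6.80, 6.60 and 6.76 at 24 h and 6.87, 8.09, 8.39, 8.69 and 8.65 at 72 h, a difference of 1.40 ± 0.20 (adjusted p = 3.47e-06). S100a9, a subunit of calprotectin, was 6.74, 6.68, 6.60, 6.41 and 6.80 at 24 h and 6.58, 7.96, 7.57, 8.18 and 7.98 at 72 h, a difference of 1.01 ± 0.19 (adjusted p = 0.000433). In all of these genes 72 h array 1 lay within the range of the 24 h arrays and the other 4 lay above it. Primary granule genes, which neutrophils make at the promyelocyte stage, did not pass, with differences of 0.02 for Mpo and -0.16 for Elane. Other members that rose were Retnlg, Chi3l1, Cybb, Cxcr2, Fcnb, S100a8 and Ncf4. The call for S100a8 passed in 2 of the 10 fits without 1 array. The count of 10 fell to 4 without 72 h array 2 and rose to 14 without 72 h array 1.

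Of 15 measured megakaryocyte and platelet markers, 8 rose and none fell, with a median of 0.54. Ppbp, the precursor of a platelet granule chemokine, was 6.92, 7.10, 7.14, 6.96 and 6.89 at 24 h and 7.47, 9.22, 8.92, 8.51 and 7.76 at 72 h. The groups did not overlap, and the rise was 1.38 ± 0.19 (adjusted p = 3.16e-06). Pf4, platelet factor 4, rose by 0.95 from 6.48, 6.58, 6.69, 6.63 and 6.46 to 7.06, 7.26, 7.72, 8.44 and 7.10. Itgb3, a subunit of the fibrinogen receptor, rose by 0.54, and Thbs1, thrombospondin 1, which many cells make, rose by 0.86. The other members that rose were F13a1, Plek, Gp1ba and P2ry12, and F13a1 and Plek are also expressed by macrophages or other leukocytes. On array 1 all 8 genes had their lowest 72 h value.

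Of 46 measured Kupffer cell, macrophage and monocyte markers, 7 rose and none fell, with a median of 0.36. Gpnmb, a glycoprotein of lipid-laden and phagocytic macrophages, was 6.97, 7.17, 7.16, 7.48 and 7.14 at 24 h and 7.78, 8.60, 8.13, 8.93 and 8.67 at 72 h (1.24 ± 0.20, adjusted p = 3.42e-05). Cd163, the receptor that takes up hemoglobin bound to haptoglobin, was 9.17, 9.14, 9.48, 9.44 and 9.38 at 24 h and 9.84, 9.94, 9.86, 9.71 and 10.07 at 72 h (0.56 ± 0.14, adjusted p = 0.018). Hmox1, which breaks down heme, was 7.65, 7.64, 7.77, 8.0 and 7.83 at 24 h and 7.94, 8.56, 8.25, 8.31 and 9.12 at 72 h (a rise of 0.66). The times were separate for Gpnmb and Cd163, and for Hmox1 array 1 at 72 h lay among the 24 h arrays. The other members that rose were Csf1r, Marco, Mrc1 and Lgals3. The calls for Cd163 and Csf1r each passed in 6 of the 10 fits without 1 array, and that for Hmox1 in 7. Clec4f and Vsig4, which mark resident Kupffer cells, did not pass, with differences of 0.43 and 0.36. The count was 1 without 72 h array 2 and 11 without 72 h array 1.

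Of 20 measured eosinophil, basophil and mast cell markers, 4 rose: Mcpt8, Mcpt9, Mcpt10 and Prg2. Mcpt8, a basophil protease, was 4.58, 4.45, 4.56, 4.23 and 4.42 at 24 h and 4.81, 4.98, 4.69, 6.05 and 7.04 at 72 h. All 72 h arrays were above the 24 h arrays (difference 1.07, adjusted p = 0.00166), and arrays 4 and 5 lay well above the other 3. Epx, the eosinophil peroxidase, did not pass (0.11). Without 72 h array 5 the list had 2 members higher. Of 20 markers of stem and progenitor cells, Csf2rb alone passed and the median was 0.06, with differences of 0.09 for Kit and 0.04 for Cd34. Of 39 lymphocyte and NK cell markers, Il7r alone passed, from 6.44, 6.15, 6.16, 6.27 and 6.11 to 6.36, 7.19, 7.12, 7.08 and 7.52. Its call passed in 3 of the 10 fits without 1 array. Cd3e (0.05) and Ms4a1 (0.18), defining markers of T and B cells, did not pass.

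The 72 h arrays differed among themselves, and not in the same order for each gene group. Over the 36 red cell genes that rose, the mean difference from the 24 h mean was 0.80, 1.42, 1.74, 2.17 and 0.92 on arrays 1 to 5. Array 4 was the highest in 34 of them, and array 1 the lowest in 23 and array 5 in 13. Over the 26 cell cycle genes that rose, the means were 0.34, 0.52, 0.51, 0.72 and 0.88, with array 5 the highest in 18 and array 1 the lowest in 14. Over the 10 neutrophil genes they were 0.15, 1.00, 0.77, 1.33 and 0.84, and over the 7 macrophage genes 0.45, 0.82, 0.53, 0.76 and 0.86. Over the 4 mast cell and basophil genes they were 0.36, 0.30, 0.48, 1.06 and 1.64, with array 5 the highest in all 4. Array 5 was thus low for red cell genes and high for cell cycle and basophil genes, and array 1, the array with the narrowest spread of values, was the lowest for the red cell, cell cycle, neutrophil and macrophage means. These genes were picked by the rise itself, so the means describe the arrays and test nothing. The part of the narrow spread of array 1 in these values was not tested.

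**Figure D3:**
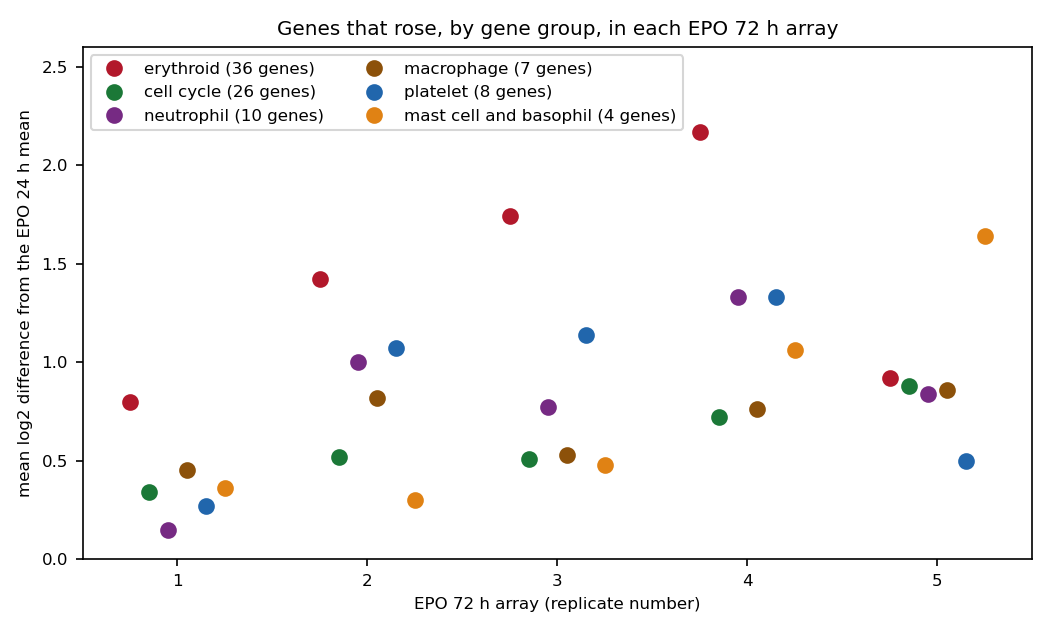
Points give, for each EPO 72 h array (horizontal axis, replicate number), the mean log2 difference from the EPO 24 h mean over the genes of a group that rose, with groups set side by side within an array. Red cell genes are highest on array 4 (2.17) and lowest on array 1 (0.80), and mast cell and basophil genes are highest on array 5 (1.64).

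Hepcidin fell more than any other gene. Hamp was 11.77, 10.56, 9.24, 11.89 and 11.58 at 24 h and 7.60, 8.92, 7.07, 8.32 and 9.16 at 72 h. The highest 72 h array was just below the lowest 24 h array, array 3, which also had the highest 24 h values of Ahsp and Alox15. The difference was -2.79 ± 0.44, a 6.93-fold fall (adjusted p = 2.48e-05). Levels for comparison were 12.90 ± 0.16 in sham livers, 12.81 ± 0.27 in vehicle livers at 24 h and 7.31 ± 0.19 in EPO livers at 7 days. Of 51 measured genes of hepcidin control and iron handling, Hamp alone fell. Cd163, Hmox1, Tfrc and Ncoa4, the receptor that delivers ferritin for breakdown, rose, and without 24 h array 2 the list had 1 member higher. Genes of the BMP and SMAD pathway that drives Hamp did not pass, with differences of 0.00 for Bmp6, -0.00 for Id1, -0.04 for Smad7 and -0.17 for Hjv. Transferrin (Tf) had a difference of -0.00, and ferroportin (Slc40a1) one of 0.25. Erfe, which encodes the erythroblast hormone that lowers hepcidin, was not among the genes measured here.

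Of 41 positive acute phase genes, Hamp alone passed. The list median was -0.03, with 25 members negative and 6 at an unadjusted p under 0.05 in limma. A2m, the strongest acute phase protein of the rat, had a difference of -0.76 that did not pass and a wide spread between arrays of a group (10.38 ± 1.82 at 24 h and 9.62 ± 1.5 at 72 h, SD, n = 5). Of 44 measured genes of hepatocyte identity, 0 passed in limma (6 had an unadjusted p under 0.05) and the median was -0.04, with Alb at -0.03. Of 38 measured P450 genes of families 1 to 3, Cyp2b15 alone passed, with a fall from 6.51, 6.64, 6.71, 6.78 and 6.59 to 6.62, 6.02, 6.38, 6.25 and 6.13. The male-specific Cyp2c11 (-0.05) and the abundant Cyp3a2 (-0.10) did not pass. Cyp2b1, the form induced by phenobarbital, had values of 9.34, 8.78, 9.47, 10.06 and 9.35 at 24 h and 8.98, 6.88, 9.14, 9.22 and 8.18 at 72 h, which overlapped (-0.92, adjusted p = 0.513). The count of P450 genes that fell went from 0 to 5 as single arrays were left out, with 5 without 72 h array 1. Of 24 cholesterol synthesis genes, 0 passed in limma, although 23 had a negative difference and 15 had an unadjusted p under 0.05. Their median was -0.30 in EPO livers and -0.37 in vehicle livers over the same times. Of 68 oxidative phosphorylation genes and 67 ribosomal protein genes 0 passed in limma, with 5 and 6 at an unadjusted p under 0.05.

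The other genes that fell were smaller changes in varied functions. Derl3, which pulls misfolded proteins out of the endoplasmic reticulum, went from 7.35, 7.95, 8.06, 8.06 and 8.37 to 6.99, 7.26, 7.04, 6.44 and 6.95 (-1.02 ± 0.22, adjusted p = 0.00291). Nat8, an acetyltransferase of cysteine conjugates, went from 8.06, 7.75, 8.48, 8.87 and 8.58 to 7.21, 6.55, 7.68, 7.85 and 7.43 (-1.01 ± 0.26, adjusted p = 0.0258). Esr1, the estrogen receptor alpha, went from 9.68, 9.78, 9.97, 10.01 and 9.85 to 8.97, 9.16, 9.70, 9.25 and 8.94 (-0.65). Nat8 overlapped in 1 array, Esr1 in 1 array, and Derl3 in none. Slc46a1, a carrier of folate and heme, went from 10.19, 10.16, 10.10, 10.40 and 9.90 to 9.69, 9.43, 9.66, 9.47 and 9.73, with no overlap (-0.56). Papss2, which makes the sulfate donor of conjugation, fell by 0.56, and Isyna1, the first enzyme of inositol synthesis, fell by 0.87. Mup5, a major urinary protein, fell by 0.96, Akr1c3, an aldo-keto reductase, fell by 0.72, and Ppif, the cyclophilin of the mitochondrial pore, fell by 0.60. Stac3 fell by 0.66, and a single array at 72 h (array 4, 9.91) stood far below the others (11.46 to 11.69). The calls for Papss2, Cyp2b15, Stac3 and Mup5 passed in 2, 3, 4 and 5 of the 10 fits that left out an array. Those for Nat8, Slc46a1 and Akr1c3 passed in 6, 8 and 9.

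Stress genes moved in both directions. Of 48 measured genes of the ATF4 and endoplasmic reticulum stress list, 4 rose and 2 fell, with a median of -0.06. Asns, asparagine synthetase, was 7.07, 7.09, 7.48, 7.77 and 7.41 at 24 h and 8.27, 9.46, 9.84, 10.72 and 8.70 at 72 h, a rise of 2.03. Mthfd2, a mitochondrial folate enzyme of dividing cells, went from 7.03, 7.07, 7.15, 7.24 and 7.31 to 7.88, 8.66, 9.07, 9.22 and 8.18, a rise of 1.44, and Slc7a5, an amino acid carrier, rose by 1.22. In these genes, as in the red cell genes, array 4 was the highest at 72 h and arrays 1 and 5 were the lowest. Slc7a11, the cystine carrier, rose by 0.51 with a less stable call, and Derl3 and Aldh1l2, a mitochondrial folate enzyme of the liver, fell. The chaperone Hspa5 (-0.12) and the factor Ddit3 (-0.00) did not pass. Of 48 interferon response genes, Rsad2 and Cmpk2, which are neighbouring genes, rose by 2.46 and 1.12, and the other 46 did not pass, among them Mx1 (0.40) and Isg15 (0.43). Rsad2 went from 6.99, 6.96, 7.61, 7.23 and 7.35 to 8.73, 9.72, 10.53, 10.71 and 8.77. Cd36, the scavenger receptor for fatty acids, rose by 1.26 and was the only one of 31 lipid synthesis and storage genes to pass.

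Several genes outside the red cell lists were among the 15 largest rises. Emb, embigin, a cell adhesion partner of lactate carriers, was 6.56, 7.03, 7.45, 7.07 and 6.81 at 24 h and 8.01, 9.47, 10.20, 10.60 and 8.99 at 72 h, a rise of 2.47. Cdc25b, a phosphatase that starts mitosis, went from 8.21, 7.77, 8.64, 8.11 and 7.93 to 9.18, 10.92, 11.11, 11.46 and 9.82, a rise of 2.37. Cd52, a surface glycoprotein of leukocytes, went from 6.53, 6.56, 6.87, 6.79 and 6.70 to 8.05, 9.43, 9.37, 10.03 and 8.22, a rise of 2.33. The times were separate for these genes, and array 4 was again the highest and array 1 the lowest. Tinagl1, a secreted matrix protein, rose by 1.76. Of other liver cell types, 2 of 25 endothelial markers (Plvap, 0.48, and Pecam1, 0.37) and 1 of 35 stellate cell and matrix genes (Hgf, the hepatocyte growth factor, 0.50) rose. The calls for Plvap and Pecam1 passed in 4 and 5 of the 10 fits without 1 array. Neither passed with only the EPO groups of both times in the fit. The immediate early gene Egr1 (-0.50), the phosphate hormone Fgf23 (0.47, adjusted p = 0.0755) and the drug efflux pump Abcb1a (0.04) did not pass. Mki67, a marker of dividing cells, was not among the genes measured here.

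Fewer genes passed between the same times in injured rats on saline or anakinra. The vehicle comparison called 3 genes (0.0207% of genes tested), of which Adamts9 and Slc17a3 were higher (0.0138%) and Derl3 was lower (0.00689%), and the anakinra comparison called 0, with 472 and 572 genes at an unadjusted p under 0.05 in limma, against 1308 in EPO livers. With only the vehicle groups of both times in the fit, 3 genes passed, 0 of them higher, and 1 was shared with the 3 above. With array weights the anakinra comparison called 35. These comparisons share no array with that of EPO livers. The 256 genes that rose in EPO livers had a median difference of 0.58 there, 0.10 in vehicle livers and 0.07 in anakinra livers, and 207 and 197 of them were positive. They were picked by their rise in EPO livers, so the larger median there is set by that choice and tests nothing. Derl3 fell in vehicle livers too (-1.20, adjusted p = 0.0169), and its value in anakinra livers was -1.03 (adjusted p = 0.298).

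**Figure D4:**
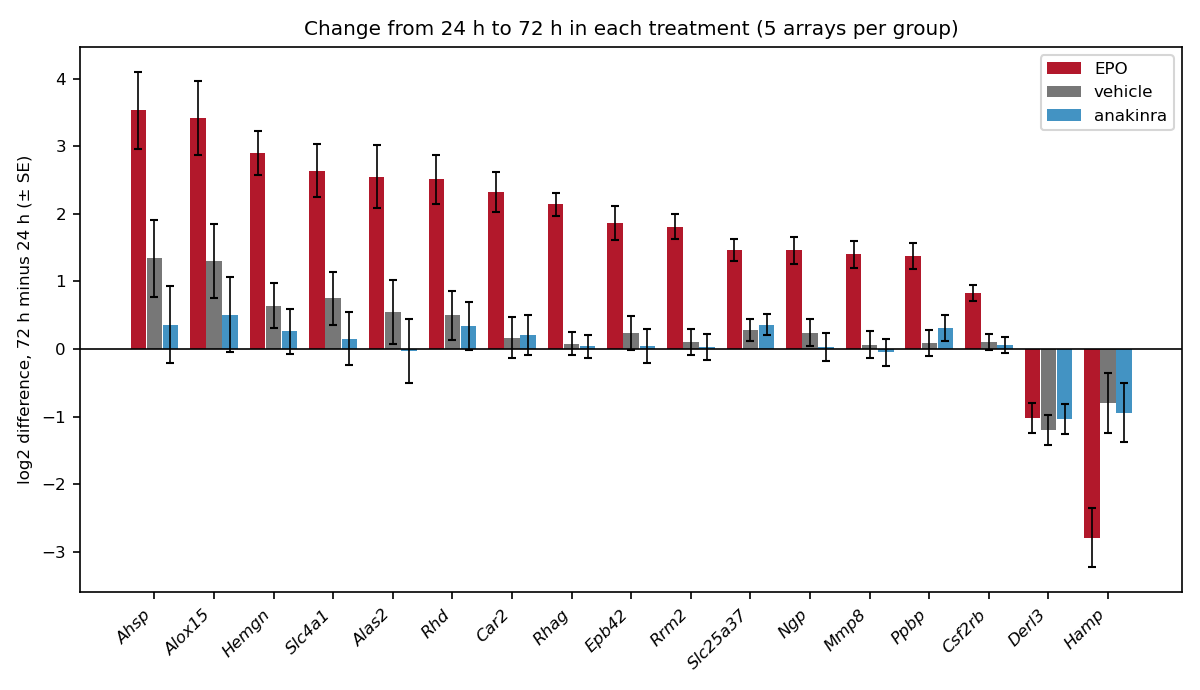
Bars give the log2 difference of 72 h minus 24 h, ± SE of the limma fit, in EPO, vehicle and anakinra livers, with 5 arrays per group. Rhag has 2.14 in EPO livers against 0.08 and 0.04, and Derl3 has falls of similar size in each treatment.

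The difference between the time changes was tested itself. Against vehicle, 23 genes changed more steeply upward in EPO livers (0.159% of genes tested) and 0 downward, with 623 at an unadjusted p under 0.05 in limma. With only the groups compared in the fit, 2 of the 23, Rhag and Rrm2, passed (adjusted p = 0.00285 for each). Against anakinra, 46 changed more steeply upward (0.317%) and 1, Bco2, downward (0.00689%), which is 0.324% of genes in all, and 12 passed with only the groups compared. Of the 93 red cell genes, 9 passed against vehicle: Rhag (2.05 ± 0.25, adjusted p = 1.17e-06), Car2 (2.15, adjusted p = 0.0129), Hemgn (2.26, adjusted p = 0.0195), Epb42 (1.62, adjusted p = 0.0237), Sptb, Ank1, Add2, Epb41 and Slc25a37. Rrm2 (1.71, adjusted p = 0.000374), Mmp8 (1.35, adjusted p = 0.0195), Ppbp (1.29, adjusted p = 0.0195), Csf2rb (0.73, adjusted p = 0.0472), Itgb3 and Mthfd2 also passed. Several genes with large EPO changes did not pass against vehicle. Ahsp had 2.19 (adjusted p = 0.638), Alox15 2.11 (adjusted p = 0.636), Alas2 2.0 (adjusted p = 0.417) and Hamp -1.99 (adjusted p = 0.305).

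The vehicle livers themselves varied widely in those genes at 72 h. Alox15 in vehicle livers was 8.05, 8.38, 6.81, 7.64 and 7.05 at 24 h and 7.88, 6.80, 10.75, 8.86 and 10.15 at 72 h. Hamp in vehicle livers was 13.02, 12.63, 13.09, 12.45 and 12.87 at 24 h and 12.89, 12.78, 11.55, 13.16 and 9.67 at 72 h. Vehicle arrays 3 and 5 at 72 h were the highest for Alox15 and the lowest for Hamp. Of the 5 arrays of the study with the narrowest spread of values, 3 are vehicle arrays used here, array 3 at 24 h and arrays 2 and 5 at 72 h, and these hold the lowest Alox15 values (6.81 and 6.80), 1 of the high ones (10.15) and the lowest Hamp value (9.67). Without the 5 narrow arrays, 33 genes passed against vehicle, 28 upward and 5 downward, and 17 of the 23 were among them. Hamp then passed (-2.58, adjusted p = 0.0469), as did Esr1 (-1.10, adjusted p = 0.0418), while Ahsp (adjusted p = 0.349), Alox15 (0.503) and Alas2 (0.427) did not. Rhag on the same vehicle 72 h arrays stayed between 4.99 and 5.49, below every EPO 72 h array. The count of 23 genes against vehicle lay between 6 (without EPO 72 h array 4) and 94 (without EPO 72 h array 1) when single arrays were left out.

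At 7 days, genes taken as examples differed in where their EPO levels stood. They do not stand for whole gene lists. Ngp (5.01 ± 0.15, SD, n = 5), Mmp8 (5.96 ± 0.17) and Mcpt8 (4.58 ± 0.16) in EPO livers were near their sham levels of 5.0, 5.74 and 4.49. Alox15 (12.55 ± 0.37) and Alas2 (11.83 ± 0.49) were near their 72 h levels of 12.73 and 11.51. Rhag (5.92 ± 0.43) and Rrm2 (6.25 ± 0.40) lay between their 24 h and 72 h levels. These 7 day levels are a description, and the step from 72 h to 7 days was not tested here.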

How the data were processed

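The deposited values are log2 intensities that the authors made by RMA with the oligo package, per the submitters' processing notes. RMA corrects background, sets all arrays to one distribution and summarises probes, and tool versions were not given in the sources used here. Of 29214 probe sets, 15310 had a single gene symbol in the platform annotation, 323 had several and 13581 had none. The probe set with the highest mean stood for each of 14506 genes. Groups were fitted together over all 50 arrays (40 residual degrees of freedom) with limma 3.58.1 in R 4.3.3, using lmFit and eBayes, and p-values were adjusted by Benjamini-Hochberg over all genes. "Passed", "rose" and "fell" mean an adjusted p under 0.05. Errors on differences are limma standard errors from the spread pooled over all groups. The EPO 72 h arrays varied more in some genes: Ank1 had an SD of 0.54 there, against 0.11 in EPO livers at 24 h and 0.08 in sham livers.

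The comparison, the gene lists and the members were chosen with earlier results of these data known. Genes are named by rule: the 15 highest and 15 lowest among those that passed, up to 4 members with the smallest p in each list, the 5 smallest p of the other comparisons, and fixed genes of interest. Further members of the lists are named as examples and were chosen after their values were seen. Of 1378 list entries, 1164 (84.5%) were measured. Alternatives changed the arrays fitted, array weights, variance model, probe choice, low-value filter, centring, narrow arrays, a replicate block and each array left out.

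Simulated data drew independent normal noise for each gene, with the same spread in every group. They gave back 98 of 100 genes changed by 1 log2 unit and 100 of 100 changed by 2. For the EPO comparison, 13 false calls fell among the unchanged genes of the 14506 run. In genes such as Ank1 the real EPO 72 h arrays varied more than the other groups, so these figures need not hold for the real data. Arrays give no read depth, so 5 arrays per group limit the precision.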

Additional observations from a re-analysis of the deposited data

Results flagged for a closer look

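In single EPO groups, 1 array of 5 stood apart by Dixon's criterion for 7 of the named genes. The screen covered all 101 named genes at both times, and chance picks about 1 in 20 groups, so 7 is no more than chance would pick. At 24 h these were Abcb1a on array 2 (7.18, others 7.89 to 8.07), Klf1 on array 4 (6.81, others 7.06 to 7.14), Ppif on array 1 (11.03, others 10.64 to 10.73) and Prdx2 on array 3 (9.33, others 9.26 to 9.27). At 72 h they were Pecam1 on array 2 (8.85, others 8.35 to 8.45), Stac3 on array 4 (9.91, others 11.46 to 11.69) and Top2a on array 5 (7.55, others 6.24 to 6.56).

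The change from 24 h to 72 h differed from that in vehicle livers, by limma's test of the difference, for 16 named genes. With only the groups compared in the fit, Rhag and Rrm2 alone of them passed. The red cell genes among them were Ank1 (1.11), Car2 (2.15), Epb42 (1.62), Hemgn (2.26), Rhag (2.05), Slc25a37 (1.18) and Sptb (1.49). The others were Cd52 (1.89), Csf2rb (0.73), Fhdc1 (1.06), Itgb3 (0.56), Mmp8 (1.35), Mthfd2 (1.19), Ppbp (1.29), Rrm2 (1.71) and Tinagl1 (1.60).

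It differed from that in anakinra livers for 24 named genes. The red cell genes were Ank1 (1.22), Car2 (2.11), Epb42 (1.82), Hemgn (2.63), Prdx2 (0.97), Rhag (2.10), Rhd (2.18), Slc25a37 (1.10), Slc4a1 (2.49) and Sptb (1.62). Cell cycle genes were Ccna2 (0.77), Nusap1 (0.83) and Rrm2 (1.78), and myeloid or platelet genes were Mmp8 (1.45), Ngp (1.42) and Itgb3 (0.50). The others were Asns (2.08), Cd52 (2.03), Cdr2 (1.81), Csf2rb (0.77), Fhdc1 (1.16), Mthfd2 (1.39), Rsad2 (2.05) and Tinagl1 (1.56). The EPO arrays are the same in both sets of differences.

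Among the 13904 probe sets without a single gene symbol, which no comparison above used, 53 were higher at 72 h than at 24 h in EPO livers and 2 were lower, and 0 passed in vehicle or anakinra livers in limma.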

How the results depend on the processing

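The EPO count of 278 genes became 155 with only the groups compared in the fit, 547 with array weights, 135 among genes at or above the median level and 136 at 1.5-fold or more, and single arrays left out gave 189 to 393. Against vehicle, the 23 became 2, 78 and 9 under the first 3 of these, with 6 to 94 as single arrays were left out, and against anakinra the 47 became 12, 175 and 14, or 28 with arrays centred on their median, with 24 to 111. With only the groups compared, the vehicle comparison still called 3, but 1 alone was shared with the main fit. The vehicle comparison's 3 became 8 with array weights, 1 among genes at or above the median level and 1 without the 5 narrow arrays, with 0 to 4, and the anakinra comparison's 0 became 35 with array weights. The count against vehicle is thus set largely by single arrays: it was 94 without EPO 72 h array 1, 44 without EPO 72 h array 5 or vehicle 72 h array 5, 7 without vehicle 72 h array 1 and 6 without EPO 72 h array 4. The correlations of deviations between same-numbered EPO arrays of the 2 times ran from -0.06 to 0.17. Arrays of different numbers were not compared, so whether replicate numbers pair the arrays was not tested. With the number as a replicate block the EPO count was 281 (269 of the 278 shared), with 27 against vehicle, 51 against anakinra, 3 in vehicle and 0 in anakinra livers. Of 81 named genes that passed, 56 passed in all 10 fits that left out an array and 51 under every setting run, and 0 of 101 named genes reversed a called direction. The causes of these shifts were not tested.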
